A study of Mus musculus with 6 samples.

Results

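The collagens of types III, V, VI, XII, XIV and XVI were examined in cultured calvarial osteoblasts from wild-type (WT) pups and from pups with the 3 Tet genes deleted in skeletal mesenchyme (triple conditional knockout, TCKO). The 10 genes Col3a1, Col5a1, Col5a2, Col5a3, Col6a1, Col6a2, Col6a3, Col12a1, Col14a1 and Col16a1 were taken by name from the 16455 genes of the deposited count table. The choice was by name, with no threshold on a measured value, but it was made with earlier results of these data known. All 10 passed the filter on low counts that left 13630 genes for the test. RNA-seq was performed on 3 libraries per genotype, and the comparison asks which transcripts differ when TET enzymes, which oxidise methylated cytosine and so start DNA demethylation, are absent. Both genotypes were on the C57/B6 strain, pups were 3 days old, and the cells were cultured for 3 days before RNA was taken, with no inducer of differentiation named in the labels. TCKO mice carried loxP-flanked (fl/fl) Tet1, Tet2 and Tet3 and a Cre recombinase driven by Prx1 regulatory sequence, which is active in limb bud and skull mesenchyme, so cells of other origin keep their Tet genes. The sources give no Cre or floxed allele for the WT mice. According to the methods the osteoblasts were released from parietal bone by enzyme digestion, and no sort is described. Neither the labels nor the methods assign a separate culture, animal or litter to each library, so p-values cover only the spread among these libraries, and that spread may be technical.

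Collagens are trimers of chains that share a repeat of glycine and 2 further residues, many of them proline. Collagens III and V are fibrillar: type III forms thin, extensible fibrils with collagen I in soft connective tissue, and type V sits inside collagen I fibrils, where its retained amino-terminal domain starts fibrils and limits their width. Collagen VI assembles into beaded microfilaments around cells, and the FACIT collagens (fibril-associated collagens with interrupted triple helices) XII, XIV and XVI bind to or near fibril surfaces and link them to other matrix. In bone these types are minor beside collagen I and are found mainly in the periosteum, in sutures and around young osteoblasts.

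The libraries held 8119261 to 10657824 reads, so 1 CPM (count per 1000000 reads, scaled by TMM) stood for about 8 to 11 reads. Within each genotype replicates 1 and 2 were close to each other and replicate 3 stood apart. The chi-square per degree of freedom over genes was 1.75 between WT replicates 1 and 2 and 2.53 between TCKO replicates 1 and 2, against 15.8 to 23.0 for every pair with replicate 3. Replicates 1 and 2 differed by more than sampling noise and were kept as separate samples, and values within replicates 1 and 2 and within replicate 3 are given where they differ. Whole-gene counts were no check of the deletion: in TCKO Tet1 was lower (log2 fold change -0.94 ± 0.22 SE, edgeR adjusted p = 0.0207), Tet2 did not pass (-0.29 ± 0.16) and Tet3 was higher (0.48 ± 0.09, edgeR adjusted p = 0.00803). The Tet1 call was lost when replicate 1 or 2 of WT (edgeR adjusted p of 0.0559 and 0.0672) or replicate 2 of TCKO (0.0799) was left out. Of the osteoblast markers 10 of 12 were listed, with a summed level of 41558 to 44713 CPM in WT and 21742 to 38073 CPM in TCKO. Col1a1 made up 38.7% of this sum over all libraries, and the sum held genes that moved in opposite directions. Of 9 tested, 1 was higher (Spp1, 6.45-fold) and 5 were lower at an adjusted p under 0.05, Alpl the most (9.24-fold). Over all genes tested 9.44% were higher and 8.9% were lower, which is the background for each marker list here. The log2 difference of Spp1 was 3.54 within replicates 1 and 2 and 0.91 within replicate 3. Alpl had 24 to 47 reads in TCKO, and its WT replicate 3 was at 315% of the mean of WT replicates 1 and 2. The late osteoblast markers Bglap and Dmp1 were not among the genes listed. Summed chondrocyte markers (8 of 8 listed) were 6536 to 8586 CPM in WT and 727 to 1010 CPM in TCKO, and all 8 were lower at an adjusted p under 0.05. Col2a1 made up 89.4% of this sum over all libraries. Summed macrophage markers (10 of 10 listed) ran from 444 to 815 CPM in WT and from 172 to 596 CPM in TCKO, lowest in TCKO replicate 3. Lyz2 made up 78.7% of this sum and did not pass (edgeR adjusted p = 0.543). All 10 had a negative log2 fold change, of which 1 passed (Adgre1, 2.91-fold lower). Summed fibroblast markers (7 of 8 listed) ran from 225 to 348 CPM in WT and from 180 to 367 CPM in TCKO, and these overlapping sums held genes that moved in opposite directions: of 6 tested 1 was higher (Dpp4, 9.84-fold) and 2 were lower (Ly6a, 5.43-fold, and Fap, 2.12-fold). Thy1, 54.3% of the summed fibroblast level, was at 103 ± 19.1 CPM in WT and 228 ± 96.5 CPM in TCKO and did not pass (edgeR adjusted p = 0.0902). Summed tendon markers (3 of 3) ran from 128 to 201 CPM in WT and from 88.5 to 115 CPM in TCKO. Endothelial markers summed to at most 3.04 CPM and muscle markers to at most 5.87 CPM in any library. Which cells in the culture the collagen reads came from was not tested, and in bulk RNA fewer cells of a type and less RNA per cell cannot be told apart.

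The 10 collagens moved in both directions. In TCKO cells Col5a3 was higher (3.04-fold), and Col5a1, Col6a3 and Col12a1 were lower (1.67-fold, 1.72-fold and 1.35-fold), while the other 6 did not pass. Passing stands for an adjusted p under 0.05 at any fold, from edgeR's quasi-likelihood test with Benjamini-Hochberg adjustment over all 13630 genes tested. So 4 of 10 members (40%) passed, against 18.3% of all genes tested. By direction, 1 of 10 was higher against 9.44% of all genes, and 3 of 10 were lower against 8.9%. Only Col5a3 also exceeded a fold of 2, the study's own limit, which 6.07% of all genes did. The genotypes did not overlap in 5 of 10 members (Col5a1, Col5a2, Col5a3, Col6a3 and Col12a1), against 38.2% of all genes. The median log2 fold change of TCKO over WT was -0.25 over the 10 members and -0.00 over all genes tested. With replicate 3 of both genotypes left out, a choice made after seeing the data, 9 members passed, 4 higher and 5 lower, against 46.3% of all genes. With replicates 1 and 2 of a genotype summed into 1 library, edgeR called 0 members, while 1 higher and 2 lower had an unadjusted p under 0.05, and 2.44% of all genes passed.

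**Figure D1:**
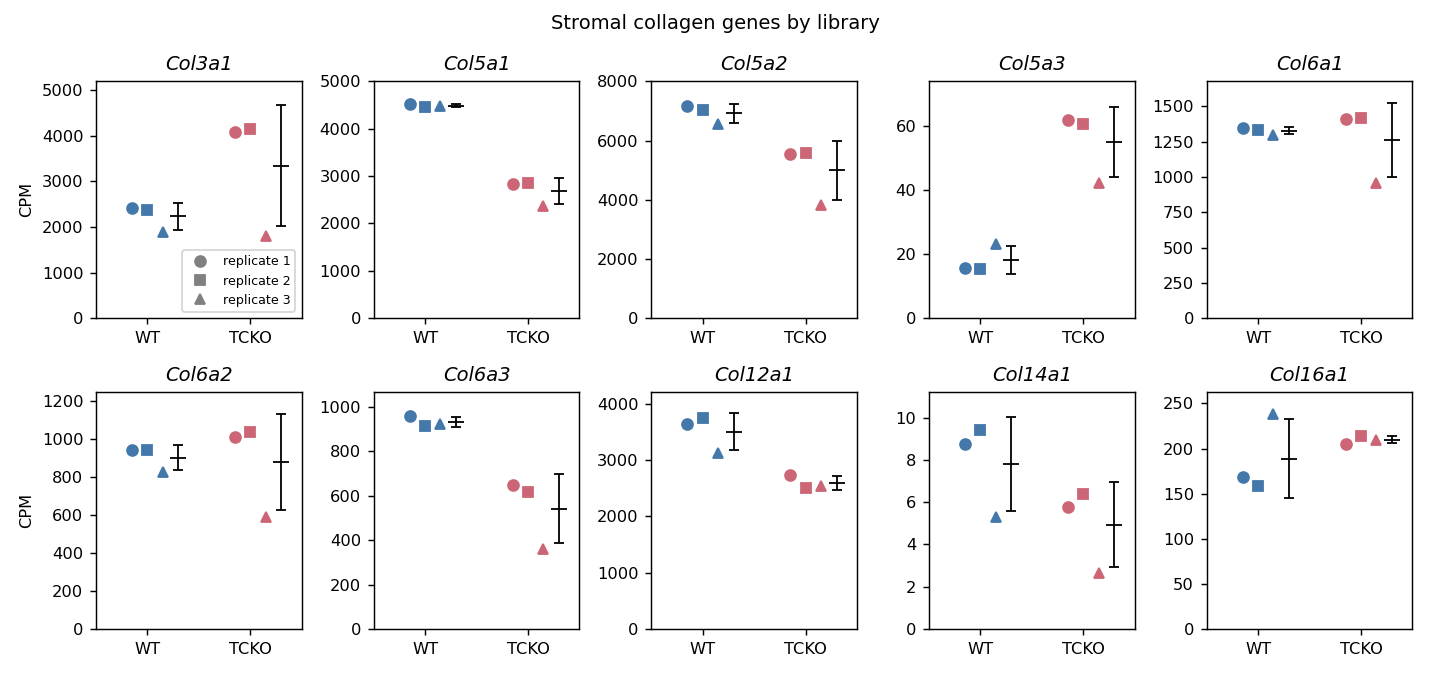
Level of each collagen gene in TMM-scaled CPM (vertical axis from 0, own scale per gene) in the 3 WT and 3 TCKO libraries; symbols mark replicate numbers and the bars show the mean ± SD of 3 libraries. Col5a1, Col5a2, Col6a3 and Col12a1 are lower and Col5a3 is higher in every TCKO library than in any WT library, and TCKO replicate 3 (triangle) lies far under the other TCKO libraries for Col3a1.

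The members spanned a wide range of levels. Per length, as RPKM over the longest coding transcript, Col5a2 had the highest level in WT cells (1044 ± 49.5, SD, n = 3), followed by Col5a1 (534 ± 4.58) and Col3a1 (401 ± 52.5). Next came Col6a1 (323 ± 6.06) and Col12a1 (304 ± 28.8), whose ranges over libraries overlapped, then Col6a2 (194 ± 14.3), Col6a3 (92.3 ± 2.39) and Col16a1 (36.2 ± 8.40). Col5a3 (2.96 ± 0.709 RPKM) and Col14a1 (1.21 ± 0.343 RPKM) were near the bottom, and the ranges of all neighbours in the WT order other than Col6a1 and Col12a1 were separate. The order depends on the length used, which for Col3a1 was 5.564 kb, against 9.816 kb for all its exons joined. The ranges over libraries do not cover this choice. In TCKO cells the mean order changed at 1 place, with Col3a1 (601 ± 239 RPKM) ranked above Col5a1 (320 ± 32.0 RPKM), but these ranges overlapped. All neighbours from Col5a2 (753 ± 152 RPKM) down to Col6a2 (189 ± 54.0 RPKM) overlapped in TCKO, as did Col6a3 (53.7 ± 15.5 RPKM) and Col16a1 (40.3 ± 0.790 RPKM).

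The summed level of the 10 genes was 3033, 2998 and 2769 RPKM in WT replicates 1 to 3 and 2822, 2827 and 1849 RPKM in TCKO replicates 1 to 3. TCKO replicate 3 was therefore the only TCKO library with a sum far from the WT libraries. The members took 1.92 to 2.08% of all reads in WT, 1.86% and 1.85% in TCKO replicates 1 and 2, and 1.30% in TCKO replicate 3. Within this sum the make-up differed between genotypes. Col3a1 made up 14.3%, 14.3% and 12.3% of the summed RPKM in WT replicates 1 to 3 and 26.0%, 26.4% and 17.6% in TCKO. The mean share of Col5a1 was 18.2% ± 0.883 in WT and 13.1% ± 1.92 in TCKO (SD, n = 3), and that of Col5a2 was 35.6% ± 0.144 and 30.3% ± 0.836. The genotypes did not overlap in the share of any of these 3 genes, nor in that of Col5a3, Col6a1, Col6a2 or Col6a3. The shares of a library add up to the whole, so a larger share of any gene lowers those of others. These shares are descriptions of the same counts as the levels and were not tested.

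**Figure D2:**
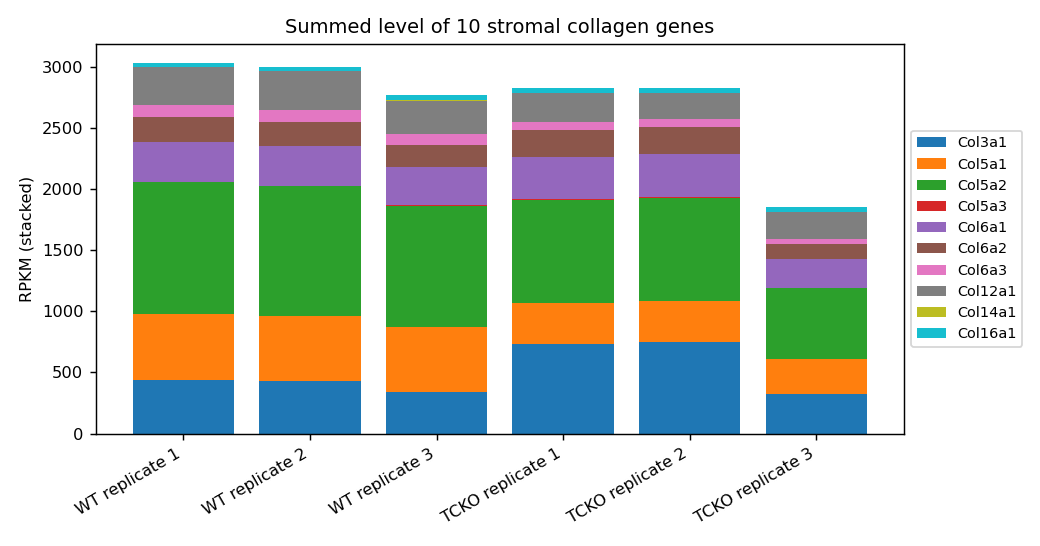
Stacked RPKM of the 10 collagen genes (vertical axis from 0) in each of the 6 libraries, with colours naming the genes. The sum is 2769 to 3033 in WT and 1849 to 2827 in TCKO, where TCKO replicate 3 is the lowest, and the Col3a1 segment is larger in TCKO replicates 1 and 2 than in WT.

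Among the fibrillar genes, Col3a1 encodes the chain of the homotrimer collagen III and lies on chromosome 1 (45311538 to 45349706, plus strand, GRCm38). Its level was 2419, 2383 and 1896 CPM in WT replicates 1 to 3 and 4081, 4145 and 1812 CPM in TCKO. TCKO replicates 1 and 2 lay above every WT library and TCKO replicate 3 lay under all of them, so the genotypes overlapped. The fold change over 3 libraries per genotype did not pass (log2 0.58 ± 0.32 SE, edgeR adjusted p = 0.254), at 0.78 within replicates 1 and 2 and -0.07 within replicate 3. Without TCKO replicate 3 it was 0.88 and passed (edgeR adjusted p = 0.000987). In TCKO replicate 3 Col3a1 was at 44.1% of the mean of TCKO replicates 1 and 2, beside 79.0% for the same ratio in WT. Its counted exons share 141 bases with Gm47302 on the same strand.

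Col5a1 encodes the α1(V) chain, which is part of nearly every collagen V trimer (chromosome 2, 27886425 to 28039514, plus strand). It had 4529, 4453 and 4479 CPM in WT and 2841, 2850 and 2379 CPM in TCKO. The WT libraries lay within 1 narrow band and each TCKO library was far under it. The gene was 1.67-fold lower in TCKO (log2 -0.74 ± 0.10, edgeR adjusted p = 0.00219), by -0.66 within replicates 1 and 2 and -0.91 within replicate 3. The call held in all 6 fits that left out 1 library (highest edgeR adjusted p = 0.0172), and with replicates 1 and 2 summed it did not (0.0938). Antisense genes 2810430I11Rik and Gm13372 share 212 exonic bases with Col5a1, and since the counting is not stated to use strand their reads cannot be told apart there.

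Col5a2 encodes the α2(V) chain and had the highest CPM of the members. It lies on chromosome 1 (45374321 to 45503282, minus strand), tail to tail with Col3a1 across a gap of 24.6 kb. It had 7168, 7036 and 6545 CPM in WT and 5553, 5591 and 3825 CPM in TCKO. Every TCKO library was under every WT library, and TCKO replicate 3 was the lowest. The difference (log2 -0.47 ± 0.15) missed the threshold (edgeR adjusted p = 0.0673). It passed with the replicate number as a block (edgeR adjusted p = 0.0216), in DESeq2 (0.0153) and without TCKO replicate 3 (edgeR adjusted p = 0.0167, log2 -0.31). It was -0.35 within replicates 1 and 2 and -0.77 within replicate 3.

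Col5a3 encodes the α3(V) chain, a rarer chain that joins α1(V) and α2(V) in mixed trimers (chromosome 9, 20770050 to 20815067, minus strand). It had 15.8, 15.5 and 23.1 CPM in WT and 61.9, 60.6 and 42.3 CPM in TCKO, from 137 to 193 and from 382 to 559 reads. All TCKO libraries exceeded all WT libraries, with replicate 3 of the 2 genotypes closest to each other. It was 3.04-fold higher in TCKO (log2 1.60 ± 0.21, edgeR adjusted p = 0.00230), at 1.97 within replicates 1 and 2 and 0.87 within replicate 3. All 6 fits without 1 library kept the call (highest edgeR adjusted p = 0.0169), and the fit with replicates 1 and 2 summed did not (0.0694). Of the 4 fibrillar genes all but Col3a1 encode chains of collagen V, and the higher and the lower call both fell on such chains. Col5a3 stayed at a small fraction of Col5a1 per length in both genotypes.

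Since TET enzymes act on methylated CG dinucleotides, the 250 bases before the annotated start are shown for Col3a1 and for the 3 called members with an entry (RefSeq, GRCm38.p6, 5′ to 3′ on the gene's strand), with each CG in capitals. RefSeq windows were matched by symbol for 7 of the 10 members, with 8 windows because Col6a2 has 2. Methylation was not measured in the table used here, so the letters give only where a CG lies.
Col3a1, chr1:45311288-45311537, plus strand: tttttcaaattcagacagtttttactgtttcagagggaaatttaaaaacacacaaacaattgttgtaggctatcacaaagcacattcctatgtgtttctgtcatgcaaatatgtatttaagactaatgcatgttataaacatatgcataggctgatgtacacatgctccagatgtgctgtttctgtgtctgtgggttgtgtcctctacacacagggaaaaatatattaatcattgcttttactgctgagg
Col5a1, chr2:27886175-27886424, plus strand: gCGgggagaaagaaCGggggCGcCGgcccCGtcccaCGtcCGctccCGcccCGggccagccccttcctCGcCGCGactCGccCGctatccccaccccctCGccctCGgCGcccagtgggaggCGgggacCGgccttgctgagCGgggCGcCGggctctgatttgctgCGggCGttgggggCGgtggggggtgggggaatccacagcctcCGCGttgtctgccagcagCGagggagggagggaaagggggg
Col5a3, chr9:20815068-20815317, minus strand: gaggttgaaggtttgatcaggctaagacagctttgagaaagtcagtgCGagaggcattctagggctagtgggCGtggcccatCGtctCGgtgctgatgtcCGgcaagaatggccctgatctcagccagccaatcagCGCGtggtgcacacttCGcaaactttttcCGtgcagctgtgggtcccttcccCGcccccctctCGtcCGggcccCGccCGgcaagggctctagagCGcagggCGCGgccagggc
Col6a3, chr1:90843972-90844221, minus strand: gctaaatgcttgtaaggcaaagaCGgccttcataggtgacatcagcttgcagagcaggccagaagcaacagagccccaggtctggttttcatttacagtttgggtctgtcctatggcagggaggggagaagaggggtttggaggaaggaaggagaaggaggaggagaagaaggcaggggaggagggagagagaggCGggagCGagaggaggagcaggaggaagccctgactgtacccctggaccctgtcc
Col3a1 had 0 CG in this window, and 7.87% of the 32851 windows of this length in the annotation had as few. Col5a1 had 28 CG (7.61% of windows had at least as many), Col5a3 had 17 (23.5%) and Col6a3 had 3 (71.0%), against a median of 6 over all windows. Of the other windows, Col16a1 had 21 CG, those of Col6a2 had 14 and 6, and Col6a1 had 3. Of the called members with a window, Col5a1 and Col6a3 were lower and Col5a3 was higher, while Col16a1 did not pass. Col12a1, also called, had no window matched. A relation between CG count and fold change was not tested.

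The 3 collagen VI genes encode the α1(VI), α2(VI) and α3(VI) chains, which assemble into 1 heterotrimer. Col6a1 (chromosome 10, 76708792 to 76726168) and Col6a2 (chromosome 10, 76595762 to 76623630) both lie on the minus strand with 85.2 kb between them, and Col6a3 lies on chromosome 1 (90765923 to 90843971, minus strand). Col6a1 had 1345, 1334 and 1297 CPM in WT and 1409, 1419 and 955 CPM in TCKO. Col6a2 had 941, 943 and 827 CPM in WT and 1010, 1039 and 590 CPM in TCKO. For both genes TCKO replicates 1 and 2 were above all WT libraries and TCKO replicate 3 was under them. Their fold changes did not pass (log2 -0.07 ± 0.15 for Col6a1, edgeR adjusted p = 0.775, and -0.04 ± 0.21 for Col6a2, 0.922). The sign turned without TCKO replicate 3, to 0.10 for Col6a1 and 0.18 for Col6a2, neither of which passed. With both replicate 3 libraries left out Col6a2 passed at 0.13 (edgeR adjusted p = 0.00548) and Col6a1 did not at 0.08 (0.0622). In that fit 46.3% of all genes passed, and the spread between the close replicates 1 and 2 may be technical.

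Col6a3 encodes the long chain that carries most of the amino-terminal domains of the trimer. It had 960, 914 and 926 CPM in WT and 650, 616 and 362 CPM in TCKO. All TCKO libraries were under all WT libraries. It was 1.72-fold lower in TCKO (log2 -0.78 ± 0.21, edgeR adjusted p = 0.0395), by -0.57 within replicates 1 and 2 and -1.35 within replicate 3. The call was lost when any WT library was left out (edgeR adjusted p of 0.122, 0.112 and 0.106 for replicates 1 to 3) or TCKO replicate 2 was (0.0697), as well as in the fit that summed replicates 1 and 2 (0.178). The log2 fold change stayed between -0.93 and -0.56 in these 6 fits without 1 library.

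Among the FACIT genes, Col12a1 encodes the homotrimer collagen XII of periosteum, tendon and ligament (chromosome 9, 79598991 to 79718831, minus strand). It had 3636, 3739 and 3122 CPM in WT and 2725, 2493 and 2533 CPM in TCKO. The genotypes did not overlap, and WT replicate 3 was the WT library nearest to TCKO. The gene was 1.35-fold lower in TCKO (log2 -0.44 ± 0.10, edgeR adjusted p = 0.0204), by -0.50 within replicates 1 and 2 and -0.30 within replicate 3. The call was lost when replicate 1 or 2 was left out, of WT (edgeR adjusted p of 0.0946 and 0.0992) or of TCKO (0.0635 and 0.0937), and with replicates 1 and 2 summed (0.287).

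Col14a1, which encodes the related collagen XIV (chromosome 15, 55307750 to 55520803, plus strand), was close to the lower end of detection. It had 8.75, 9.40 and 5.27 CPM in WT and 5.76, 6.39 and 2.66 CPM in TCKO, from 44 to 99 and from 24 to 52 reads. Replicate 3 was the lowest of its genotype in both, and WT replicate 3 lay under TCKO replicates 1 and 2. The difference did not pass (log2 -0.67 ± 0.35, edgeR adjusted p = 0.225), but passed with the replicate number as a block (-0.68, edgeR adjusted p = 0.0324). Within replicates 1 and 2 it was -0.58 and within replicate 3 it was -0.99.

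Col16a1 encodes collagen XVI, found beside thin fibrils and microfibrils (chromosome 4, 130047840 to 130099283, plus strand). It had 169, 158 and 239 CPM in WT and 206, 214 and 210 CPM in TCKO. All TCKO libraries lay between WT replicate 3 and the other WT libraries. It did not pass (log2 0.15 ± 0.15, edgeR adjusted p = 0.517), at 0.36 within replicates 1 and 2 and -0.19 within replicate 3. Without WT replicate 3 it was 0.36 and passed (edgeR adjusted p = 0.00642).

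**Figure D3:**
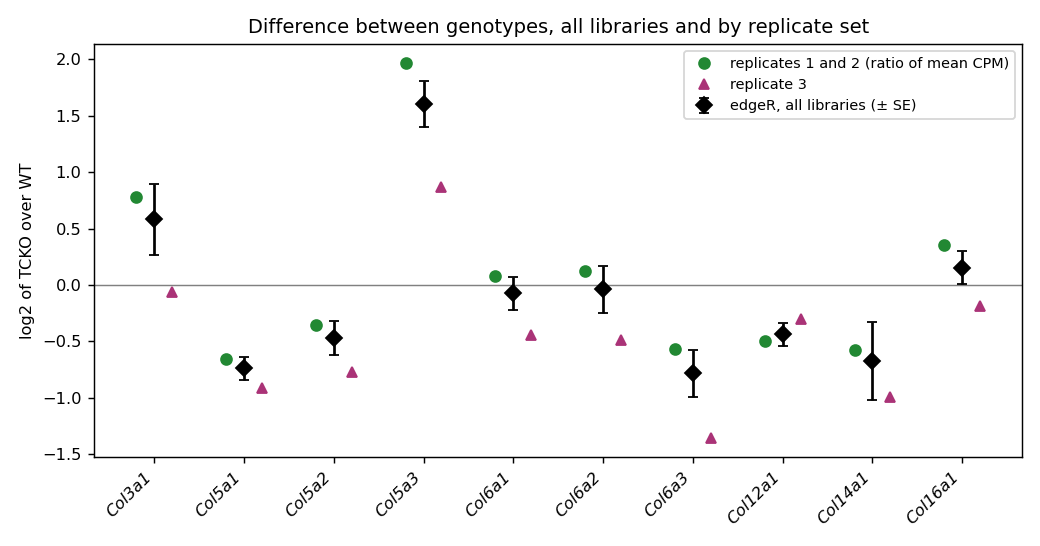
Log2 fold change of TCKO over WT for each collagen gene from edgeR over all 6 libraries (diamonds, ± SE), beside the log2 ratio of mean CPM within replicates 1 and 2 (circles) and within replicate 3 (triangles). Col5a1, Col5a2, Col6a3, Col12a1 and Col14a1 are under 0 and Col5a3 is above 0 in both replicate sets, while Col3a1, Col6a1, Col6a2 and Col16a1 change sign between them.

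In both replicate sets 6 of the 10 genes kept 1 sign. The share of all genes that did so was not computed, so this count describes the members only. The level of replicate 3 relative to its own genotype differed widely between members. In TCKO replicate 3 the members were at 43.7% (Col14a1) to 100.2% (Col16a1) of the mean of TCKO replicates 1 and 2, and in WT replicate 3 at 58.1% (Col14a1) to 148% (Col5a3). The 2 members with the smallest drop in TCKO replicate 3 were Col16a1 and Col12a1 (97.1%).

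Ratios of chains within a library need no scaling between libraries, and 7 were tested with an exact two-sided permutation test over the 6 libraries. With 3 against 3 the smallest p it allows is 0.1, so no ratio could pass, and p-values were adjusted over the 7 ratios. All ratios are of reads per kilobase. The ratio of Col5a2 to Col5a1 was 2.008, 2.005 and 1.854 in WT and 2.481, 2.489 and 2.040 in TCKO, a difference of 0.25 on the log2 scale (exact p = 0.1, adjusted 0.175). The most common collagen V trimer holds 2 α1(V) chains and 1 α2(V) chain, whereas the α2(V) message was the more abundant in all 6 libraries. The ratio of Col5a3 to Col5a1 was 0.00478, 0.00477 and 0.00709 in WT and 0.0299, 0.0292 and 0.0244 in TCKO, 5.09-fold higher (log2 difference 2.35, exact p = 0.1, adjusted 0.175). For both ratios the genotypes did not overlap.

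In collagen VI the ratio of Col6a2 to Col6a1 was 0.617, 0.623 and 0.562 in WT and 0.632, 0.645 and 0.544 in TCKO. These overlapped, with a log2 difference of 0.01 (exact p = 0.8) that is far smaller than the spread between libraries. The ratio of Col6a3 to Col6a1 was 0.290, 0.278 and 0.289 in WT and 0.187, 0.176 and 0.154 in TCKO, 1.66-fold lower with no overlap (log2 difference -0.73, exact p = 0.1, adjusted 0.175). TCKO replicate 3 thus stood nearer to the other TCKO libraries in this ratio than in the levels of the single genes.

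Relative to Col1a1, the main chain of collagen I, Col3a1 was at 0.138, 0.145 and 0.118 in WT and 0.348, 0.344 and 0.216 in TCKO. This ratio was 2.22-fold higher in TCKO with no overlap, TCKO replicate 3 included (log2 difference 1.15, exact p = 0.1, adjusted 0.175). Col1a1 itself was lower in TCKO (log2 -0.64 ± 0.15, edgeR adjusted p = 0.0232), a call lost when replicate 1 or 2 of WT (0.101 and 0.0847) or replicate 1 of TCKO (0.0624) was left out. Col5a1 relative to Col1a1 overlapped between genotypes (log2 difference -0.09, exact p = 0.4, adjusted 0.56), and so did Col14a1 relative to Col12a1 (-0.28, exact p = 0.7, adjusted 0.8).

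**Figure D4:**
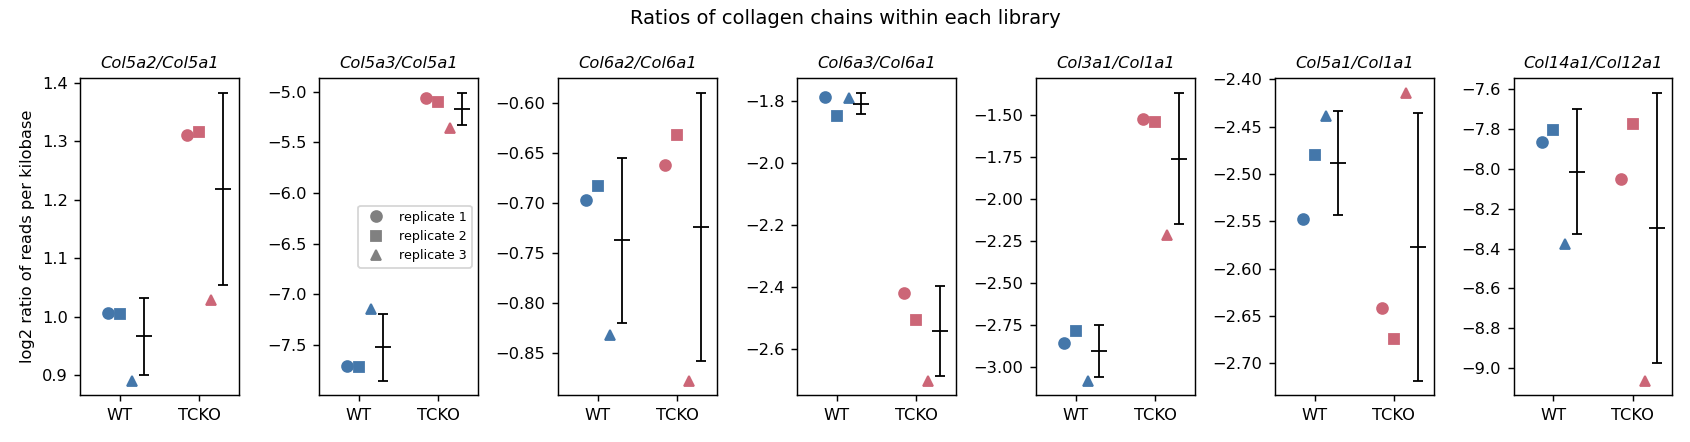
Log2 ratio of reads per kilobase of 2 collagen chains within each library (own scale per panel), with symbols for replicate numbers and bars for the mean ± SD of 3 libraries. Col5a2/Col5a1, Col5a3/Col5a1 and Col3a1/Col1a1 are higher and Col6a3/Col6a1 is lower in each TCKO library than in each WT library, and the other 3 ratios overlap.

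The collagen gene most like each member over the 6 libraries was found among 32 others by Pearson's r of log2 CPM. The libraries share their genotype and the difference of replicate 3, so r is a description with no test. Col5a1 was closest to Col11a1 (r = 0.99), another fibrillar chain of the V/XI subfamily, and Col5a2 to Col1a2 (r = 0.998), the second chain of collagen I. Col6a1 and Col6a2 were closest to each other (r = 0.98), while Col6a3 was closest to Col1a2 (r = 0.99). Col12a1 was closest to Col15a1 (r = 0.98), Col14a1 to Col5a2 (r = 0.92), Col5a3 to Col4a1 (r = 0.95) and Col3a1 to Col4a2 (r = 0.87), both basement membrane chains. Col16a1 had no close match, with r = 0.67 for Col7a1.

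Of 34 other collagen genes 28 were listed and 23 tested, of which 2 were higher, 10 were lower and 11 did not pass. Over all genes 9.44% were higher and 8.9% were lower. The 23 collagen genes tested had a median log2 fold change of -0.87. The 4 with the smallest adjusted p were all lower: Col9a2 (-3.67 ± 0.15), a chain of the cartilage FACIT IX, Col2a1 (-3.15 ± 0.17), the fibrillar collagen of cartilage, Col11a1 (-2.11 ± 0.16) and Col8a2 (-2.10 ± 0.21), a short-chain network collagen. All 4 kept an edgeR adjusted p under 0.05 in each fit without 1 library and with replicates 1 and 2 summed. The 2 that were higher were Col7a1 (3.15 ± 0.47), the anchoring fibril collagen, and Col4a1 (0.46 ± 0.09), the call of which was lost when replicate 1 or 2 of either genotype was left out (edgeR adjusted p of 0.0573 to 0.0672). With the replicate block 4 were higher and 11 lower, and with 1 library left out 8 to 13 were lower. Only 1 was higher when replicate 1 or 2 of either genotype was left out, and 3 were higher without TCKO replicate 3. With replicates 1 and 2 summed 6 were lower and 0 were higher in edgeR, with 3 higher at an unadjusted p under 0.05, while 2.44% of all genes passed. Some of the lower cartilage collagens are themselves among the chondrocyte markers given above, and Col2a1 alone made up 89.4% of that sum. That these collagens moved with the sum is therefore no separate result, and the part of chondrocytes in it was not tested.

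Among 7 procollagen proteases and enhancers, all tested, 3 were higher, 0 were lower and 4 did not pass, against 9.44% higher and 8.9% lower over all genes. The median log2 fold change of this list was 0.48. Adamts14, an amino-propeptidase of fibrillar procollagens, was 2.32-fold higher (1.22 ± 0.14, edgeR adjusted p = 0.00105) and Tll1, a tolloid proteinase that removes carboxy-propeptides, was 2.73-fold higher (1.45 ± 0.24, edgeR adjusted p = 0.00739). Both calls held in all 6 fits without 1 library, and with replicates 1 and 2 summed that of Adamts14 held (edgeR adjusted p = 0.0409) and that of Tll1 was lost (0.0749), which left 1 higher call in the list. Bmp1, the main carboxy-propeptidase, was higher (0.48 ± 0.13, edgeR adjusted p = 0.0342), but passed in 1 of those 6 fits alone, that without WT replicate 3, with adjusted p of 0.0683 to 0.130 in the others. Beside the 0 lower calls of edgeR, 2 genes had a lower value at an unadjusted p under 0.05 (Pcolce and Adamts2), and DESeq2, the replicate block and the fit without TCKO replicate 3 each called 2 lower.

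Of 11 collagen receptors, all tested, 1 was higher, 5 were lower and 5 did not pass, against 9.44% higher and 8.9% lower over all genes. The median log2 fold change of this list was -0.94. Antxr1, an anthrax toxin receptor that binds collagen VI among other collagens, was 1.91-fold lower (-0.94 ± 0.09, edgeR adjusted p = 0.000415), and Itga10, the α chain of a collagen-binding integrin of cartilage cells, was 2.52-fold lower (-1.33 ± 0.15, edgeR adjusted p = 0.000960). Both held in all 6 fits without 1 library and with replicates 1 and 2 summed, but Itga10 shares 1739 exonic bases with Gm42957 on the same strand. Itgb1, the shared β1 integrin chain, was higher (0.54 ± 0.10, edgeR adjusted p = 0.00955) and Ddr2, the fibrillar collagen receptor kinase, was lower (-0.44 ± 0.09, edgeR adjusted p = 0.0119). Both of these calls were lost without WT replicate 1 or WT replicate 2 (edgeR adjusted p of 0.0565 to 0.0622). The list held 2 lower calls without WT replicate 1 and 3 without WT replicate 2, with 0 higher in both. With the replicate block 7 were lower, with Cspg4 (edgeR adjusted p = 0.000136) and Mrc2 (0.0234) gained, and with replicates 1 and 2 summed 2 were lower and 0 higher, against 6 and 1 at an unadjusted p under 0.05. Antxr2, whose product also binds collagen VI, was at 61.1 ± 3.15 CPM in WT and 61.0 ± 3.19 CPM in TCKO (SD, n = 3), a difference far under the spread between libraries.

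Of 15 fibril partners 13 were tested, of which 1 was higher, 6 were lower and 6 did not pass, against 9.44% higher and 8.9% lower over all genes. The median log2 fold change of this list was -0.56. Tnc, the hexameric matrix protein tenascin-C, was the higher one (2.26-fold, 1.17 ± 0.15, edgeR adjusted p = 0.00145). Fmod, the collagen-binding proteoglycan fibromodulin, was 3.81-fold lower (-1.93 ± 0.21, edgeR adjusted p = 0.00149) and Sparc, a collagen-binding protein abundant in bone, was 1.99-fold lower (-0.99 ± 0.11, edgeR adjusted p = 0.00109). These 3 calls held in all 6 fits without 1 library. When replicates 1 and 2 were summed those of Tnc (edgeR adjusted p = 0.0510) and Sparc (0.0758) were lost and that of Fmod held narrowly (0.0499), which left 0 higher and 1 lower in the list, against 1 higher and 5 lower at an unadjusted p under 0.05. Bgn, the small proteoglycan biglycan, was 1.48-fold lower (-0.56 ± 0.11, edgeR adjusted p = 0.00919), a call lost without WT replicate 1 (0.0513) or WT replicate 2 (0.0522). The lower calls numbered 3 when replicate 1 or 2 of WT or replicate 2 of TCKO was left out, and without WT replicate 3 there were 2 higher calls. With the replicate block 7 were lower, with Dcn (edgeR adjusted p = 0.000170) and Lum (0.00172) gained and Comp (0.0651) lost.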

How the data were processed

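RNA-seq was done on 3 WT and 3 TCKO osteoblast libraries, grouped by their labelled genotype, with total counts of 8119261 to 10657824 reads. The deposited table holds raw read counts per gene, made by the authors from TruSeq libraries of total RNA aligned to GRCm38. The submitters' processing notes name HISAT2 and the published methods name another aligner, and the counting program and its use of strand are not given in the sources used here. Whole reads were counted, so a gene's count grows with transcript length, and multigene or overlapping exons can share reads. The smallest total in the table is 10 reads. The authors' genotype means, fold changes, p-values and FDR values are also in the table and were not used.

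Counts were tested in R 4.3.3 with edgeR 4.0.16 (filterByExpr, TMM, robust glmQLFit, glmQLFTest, genotype as the only term), 2-sided, with Benjamini-Hochberg adjustment over 13630 genes, 2825 being set aside. The methods name DESeq2, which was run as an alternative (1.42.0) beside limma-voom (3.58.1), other scalings, no filter, a replicate block, replicates 1 and 2 summed, and each library left out. The SE is the log2 fold change over the square root of F. CPM used TMM-scaled library sizes, and RPKM divided CPM by the longest coding transcript of GENCODE M21 (GRCm38), which also gave the 1-based positions. Exact permutation tests went through every split of the 6 libraries in Python 3.11.15, and the chi-square between replicates used SciPy 1.17.1. Only the model fits were checked on simulated counts, with all libraries drawn independently. The simulation held neither the closeness of replicates 1 and 2 nor the shift of replicate 3, so it does not cover them.

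Samples with the same replicate number deviated together (correlations of deviations from the genotype means of 0.192, 0.195 and 0.332 over genes, all above the limit of 0.1). Replicates 1 and 2 were at -0.284 to -0.234 with replicate 3 of the other genotype. But replicates 1 and 2 also followed each other's number (0.180 for WT 1 with TCKO 2, 0.246 for WT 2 with TCKO 1). The deviations thus set replicate 3 apart and do not pair replicate 1 with 1 or 2 with 2, and the labels give no pairing. The main edgeR fit and the permutation tests therefore used no pairing, and calls rest on them unless the replicate block is named.

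The members, gene lists and tests were chosen with earlier results of these data known. Named are all members, up to 4 genes per further list with the smallest adjusted p, Tet1 to Tet3, the closest collagen to each member, and genes needed to state a result. Col7a1, Col4a1, Col1a1, Antxr2, Pcolce, Adamts2, Cspg4, Mrc2, Dcn, Lum, Comp, Spp1, Alpl, Dpp4, Ly6a, Fap and Thy1 were named after their values were seen. Marker genes listed under older symbols (Lect1, Emr1) were matched by RefSeq synonyms.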

Additional observations from a re-analysis of the deposited data

How the results depend on the processing

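Of 150 alternatives over the 10 members' fold changes, 124 kept direction and side of the threshold, 12 lost the call, 10 gained it and 4 turned the sign. The 49 alternatives over chain ratios all moved by less than the pooled SD of the genotypes, but this could not come out otherwise. Leaving out 1 of 3 libraries cannot move a mean that far, and division by length cancels in the difference, so no stability is read from it. The sign of 2 ratio differences that overlapped between genotypes turned: Col14a1/Col12a1 (-0.28) was 0.10 without TCKO replicate 3, and Col6a2/Col6a1 (0.014) ran from -0.034 to 0.091 with 1 library left out. The sign turned for Col6a1 (-0.07), which ran from -0.16 to 0.10 with 1 library left out and was 0.082 with replicates 1 and 2 alone, and for Col6a2 (-0.04), which ran from -0.17 to 0.18 and was 0.13. The 2500 genes that passed became 353 with replicates 1 and 2 summed, 1190 to 3313 with 1 library left out and 6371 with replicates 1 and 2 alone. Members that were higher (1) became 0, 1 to 2 and 4 in the same order, and those that were lower (3) became 0, 1 to 4 and 5. The summed fit has fewer libraries; the cause of the other shifts was not tested. With the replicate block 5 members were lower, Col5a2 and Col14a1 added, and no other member's call changed, while 3352 genes passed. DESeq2 called 4 members lower, Col5a2 added. Scaling did not matter for the members: with RLE, upper-quartile or no TMM scaling 1 was higher and 3 were lower, and the median of all genes moved by at most 0.03. Depth limits Col14a1 (24 to 99 reads), and the exact test of a chain ratio cannot go under p = 0.1 with 3 libraries per genotype.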
